A study of Mus musculus with 16 samples.

Results

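Principal cells are the water- and sodium-reabsorbing cells of the kidney's collecting duct, and 7645 barcodes of that type were found among 94436 barcodes kept from 116439 in 16 single-cell RNA libraries of mouse kidney. A barcode was chosen by its own transcript counts. It had to hold 200 to 7000 detected genes, at most 50% mitochondrial UMIs (unique molecular identifiers, 1 per captured transcript), at least 3 UMIs of Aqp2 and at least 2 UMIs of Aqp3, Fxyd4 and Hsd11b2 together. Calb1 and S100g, 2 calcium-binding genes of the connecting tubule, had to make up under 1% of its UMIs. It also had to hold 0 UMIs of Slc4a1 and Slc26a4 (intercalated cells), Cubn (proximal tubule), Pecam1 (endothelium), Pdgfrb (mesangium and pericytes) and Ptprc (leukocytes). These 12 genes were used to select the cells and were left out of every count of changed genes.

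The DN group were BTBR ob/ob mice, which lack functional leptin and become obese and diabetic, and the controls were BTBR +/+ mice. Females and males were taken at 6 and 12 weeks of age, with 2 libraries for each combination of genotype, sex and age, so that 4 DN and 4 control libraries stood at each age. All the animals carried a fluorescent reporter driven by a podocyte Cre, in control and DN mice alike. The papilla was cut away and the suspension was enriched for glomeruli on Percoll, with loss of proximal tubules, so the cells came from the cortical and outer parts of the duct and were a by-product of that enrichment.

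In the principal cell, vasopressin binds its V2 receptor at the basolateral side, and cyclic AMP then brings Aqp2 water channels to the luminal membrane, while Aqp3 and Aqp4 let the water leave on the blood side. Sodium enters through the epithelial sodium channel ENaC (Scnn1a, Scnn1b, Scnn1g), which aldosterone raises through the mineralocorticoid receptor Nr3c2, and potassium leaves through Kcnj1. Hsd11b2 inactivates glucocorticoids so that they do not occupy that receptor, and Fxyd4 is a small regulator of the sodium pump. In diabetes, glucose that stays in the tubular fluid holds water with it and raises the flow that reaches this segment.

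Libraries held 225 to 841 principal cells. Counts were summed over the principal cells of each library, and levels are given in CPM, counts per 1000000 UMIs of these sums after TMM scaling (summed markers and the genes of the rule are given without that scaling). Where 4 values of a group are given in a row, the order is female replicate 1, female replicate 2, male replicate 1 and male replicate 2. The 4 female replicate 1 libraries shared few barcode sequences with the other 12 (at most 0.0589%, against at least 0.108% within each set), which was taken as another chemistry or barcode list. They were shallower, with 10510855 to 21728793 UMIs in all against 83410397 to 125551519, and with a median of 4411 to 4745 UMIs per principal cell against 7589 to 14491. Each genotype and age had 1 such library, and a term for this batch stood in the model. The barcodes held 115065 distinct sequences. Control female replicate 2 at 6 weeks stood apart from the other controls in several of the genes described here, and its values are given beside them.

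The label was checked on markers that the rule did not use. With each principal cell thinned to 2000 UMIs, Avpr2, the vasopressin V2 receptor, was seen in a median over libraries of 41.2% of cells, Scnn1b in 53.6% and the transcription factor Gata3 in 37.2%. In proximal tubule-type barcodes, which had UMIs of Cubn and Lrp2 and 0 of Aqp2, the same medians were 0%, 0.673% and 0.81%. In connecting tubule-type barcodes, which met every criterion but the limit on Calb1 and S100g, they were 22.1%, 51.5% and 22.6%. Scnn1g and the transcription factor Tfap2b had medians of 47.3% and 28.1% there against 43.4% and 26.8% of principal cells, and Aqp4 of 8.11% against 41.2%. Krt18 and St6gal1, the last of the 9 markers outside the rule, were seen in 47.5% and 10.8% of principal cells against 33.4% and 8.21%. Elf5, a transcription factor of principal cells, was seen in 10.9% of principal cells and in a median of 0% of proximal tubule-type and 0.636% of connecting tubule-type barcodes. The demand for 0 Aqp2 UMIs left barcodes with free Aqp2 RNA out of the proximal tubule-type set, which may lower the shares in that set. Cells shallower than 2000 UMIs were left out of these shares and at most 400 cells were drawn a library, which gave 178 to 400 principal cells, 59 to 400 proximal tubule-type and 25 to 400 connecting tubule-type barcodes a library. The summed level of these 9 markers was 2014 to 2677 CPM over the 16 libraries.

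RNA of other cells was present too. The 5 summed connecting tubule markers, Calb1 and S100g among them, stood at 944 to 2406 CPM in principal cells (median over libraries 1772). Of the 3 that were tested, the calcium channel Trpv5 rose over both ages (1.30, adjusted p = 0.031). Klk1 went the other way without passing (-1.09, adjusted p = 0.109), with medians of 424 CPM in controls and 185 in DN mice, and Slc8a1 did not pass. The summed proximal tubule markers ranged from 1358 to 2536 CPM in principal cells of the control males, from 351 to 988 in the DN males and from 255 to 748 in the females of both genotypes. Thick ascending limb markers reached 697 CPM in control female replicate 2 at 6 weeks (median over libraries 99.2). Of these 3 markers Umod had a median of 148 CPM in controls and 32.3 in DN mice (-1.67 over both ages, adjusted p = 0.0989), Slc12a1 of 38.2 and 16 (-1.30, adjusted p = 0.155), and Cldn16, of 2.49 and 3.18, rose at 12 weeks (1.85, adjusted p = 0.0425). The part of these cells' RNA in the differences given here was not tested. Intercalated cell markers stood at 19.4 to 212 CPM and endothelial markers at 1.19 to 35.2 CPM, and red cell transcripts reached 617 CPM in control male replicate 1 at 12 weeks.

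Aqp2 itself varied widely among the chosen cells, from a median of 25 UMIs per cell in one library to 188 in another. At the edge of the rule, 262 members had exactly 3 Aqp2 UMIs, while 479 barcodes that met the other criteria had 2. On the sum of Aqp3, Fxyd4 and Hsd11b2, 107 members had exactly 2 UMIs and 114 otherwise matching barcodes had 1. The larger losses came elsewhere, since 5147 otherwise matching barcodes were dropped for a UMI of another lineage and 4042 for Calb1 and S100g.

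Among 12-week controls the Aqp2 level of members, in CPM, was 6792 and 3932 in the females and 9988 and 6193 in the males. Among 12-week DN mice it was 18301 and 9385 in the females and 16311 and 9733 in the males, with some overlap. These levels were part of the rule and carry no test. When the Aqp2 minimum was dropped and the other criteria kept, the DN-to-control log2 fold change of Aqp2 was 1.18 ± 0.30 (SE) at 12 weeks, which did not pass the test (adjusted p = 0.102). With DN and control mice of the same sex, age and replicate number paired (a replicate block in the model), it did (adjusted p = 0.00431). Without that minimum the 12-week controls held 603, 638, 990 and 1290 barcodes instead of 452, 300, 813 and 764. The DN mice held 571, 393, 345 and 414 instead of 512, 271, 272 and 278. The part of the added barcodes in the Aqp2 difference was not tested. Calb1 was tested the same way, without the limit on Calb1 and S100g, and rose at 12 weeks, with a log2 fold change of 0.97 ± 0.18 (adjusted p = 0.0118, and 0.0947 in the 12 deeper libraries alone). Without that limit connecting tubule-type barcodes made up 181 of 633, 178 of 478, 371 of 1184 and 470 of 1234 barcodes in the 12-week controls, and 175 of 687, 226 of 497, 233 of 505 and 312 of 590 in the DN mice. Their part in the Calb1 difference was not tested. Outside their own criterion, Aqp3, Fxyd4 and Hsd11b2 had log2 differences of 0.52, -0.52 and -0.38 at 12 weeks, with adjusted p = 0.25, 0.431 and 0.31, or 0.0126, 0.0128 and 0.0407 with the pairing.

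The first question of the design was what differed between DN and control mice at 12 weeks, and genes of secreted signals and their antagonists were among those that differed. The neuropeptide gene Npy fell, and the BMP antagonist Grem1, the BMP family ligand Bmp3 and the secretory-granule chaperone Scg5 rose. Id1, Id3 and Id4, transcriptional regulators that BMP signals are known to induce, fell. The injury-associated lipocalin Lcn2 and the intermediate filament gene Krt19 rose. In all, 90 genes rose (0.787% of the 11438 tested) and 29 fell (0.254%), or 119 together (1.04%), at an adjusted p under 0.05 in edgeR's quasi-likelihood test. Of these 119, 102 had no overlap between the 4 DN and 4 control libraries, against 5.42% of all genes tested.

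The count leaned on single libraries. It was 49 to 51 without control female replicate 2, control male replicate 2, DN female replicate 1 or DN male replicate 1 of 12 weeks, 68 without control male replicate 1 of 12 weeks and 191 without DN male replicate 2 of 6 weeks. With the mice paired by replicate number it was 648 (5.67%; 370 rose and 278 fell), and the 119 were among them. With no filter on low counts 321 rose and 246 fell.

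Npy encodes neuropeptide Y, a peptide best known from neurons. At 12 weeks it stood at 1399, 404, 1229 and 939 CPM in the controls and 284, 103, 101 and 211 in the DN mice, and at 6 weeks at 710.2, 173, 1309 and 680.1 and 95.6, 33.5, 195 and 159.7. Within each pair of the same sex, age and replicate number the DN library was the lower one, and the groups did not overlap at 12 weeks, while at 6 weeks control female replicate 2 lay below DN male replicate 1. The log2 fold change with its SE was -2.47 ± 0.25 at 12 weeks, or 0.181 of the control level (adjusted p = 0.000219) and -2.55 ± 0.25 at 6 weeks (adjusted p = 0.000239). The share of thinned principal cells with an Npy UMI was 34.3% to 59.0% in the 12-week controls and 10.6% to 23.2% in the DN mice, against 0% to 2.74% of proximal tubule-type barcodes over all libraries.

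**Figure D1:**
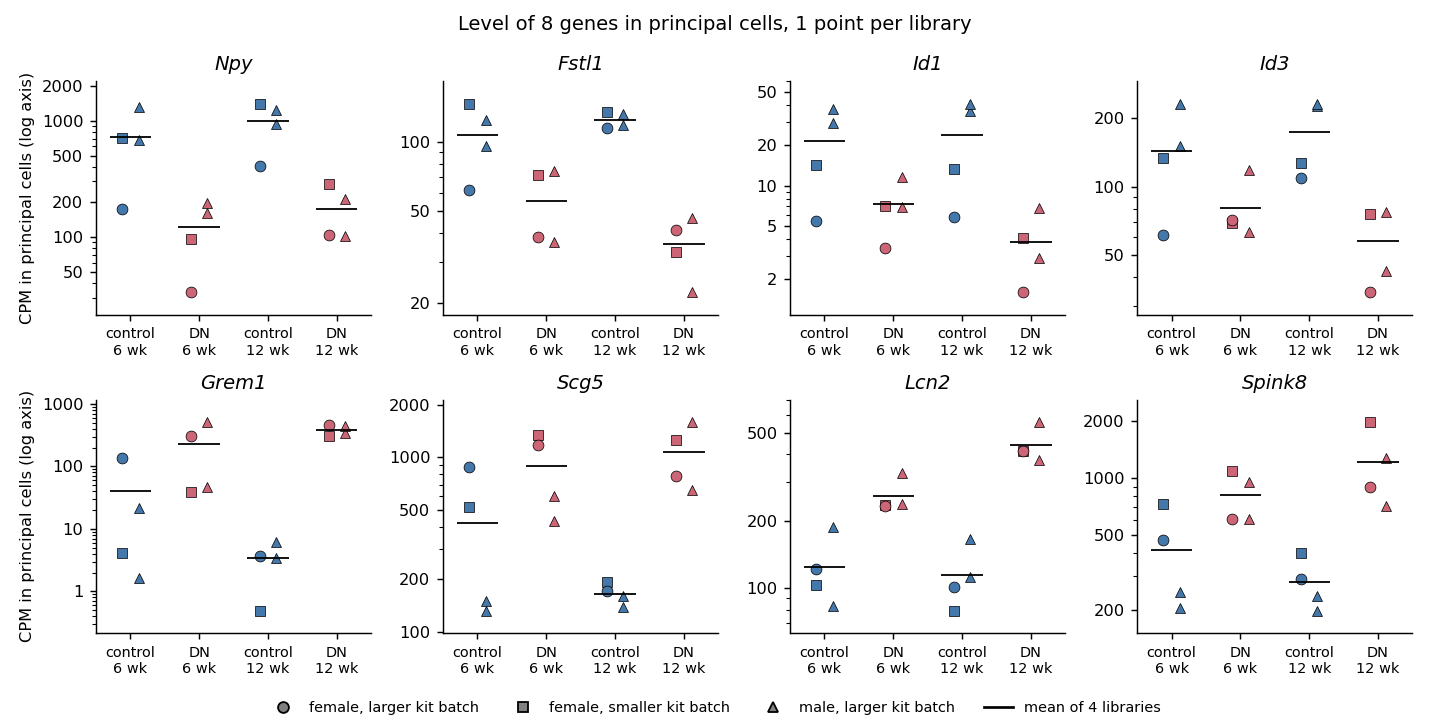
Levels of 8 genes in principal cells by library, in CPM on a log axis, with each point 1 library, grouped by genotype (blue, control; red, DN) and age, and lines at the mean of 4 libraries; squares are the shallower female libraries. At 12 weeks the 4 DN libraries of Npy (101 to 284 CPM) lie below the 4 controls (404 to 1399), and the DN libraries of Grem1 (311 to 456) lie above the controls (0.489 to 6.23).

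Grem1 encodes gremlin 1, a secreted protein that binds BMPs and keeps them from their receptors. Grem1 was low in control principal cells at 12 weeks, at 0.489, 3.72, 3.42 and 6.23 CPM, and reached 311, 456, 344 and 439.8 CPM in DN mice. The 4 DN libraries lay close together and far above the controls, with a log2 fold change of 6.92 ± 1.03 (adjusted p = 0.00244).

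At 6 weeks Grem1 was uneven among mice. It stood at 4.05, 135, 1.63 and 21.3 CPM in controls and 38.9, 309.6, 46.2 and 509 in DN mice, so that both DN replicate 1 libraries were low and control female replicate 2 was high. The test was not passed at 6 weeks (adjusted p = 0.285), although it was with the pairing (adjusted p = 0.00728). After thinning, a Grem1 UMI was seen in 0% to 1.12% of control principal cells at 12 weeks and 32.0% to 42.0% of DN ones. In connecting tubule-type barcodes that share was 0% to 0.592% in 12-week controls and 19.0% to 27.8% in 12-week DN mice. In proximal tubule-type barcodes of all libraries it was 0% to 1.19%.

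Bmp3, a BMP family ligand that opposes other BMPs, had the largest estimated log2 fold change of the named genes at 12 weeks. The 4 control libraries of 12 weeks together held 5 UMIs of it and the 4 DN libraries held 559, so its fold change has no firm size. Per library the levels were 0.489, 0.233, 0.331 and 0 CPM in controls and 54.5, 39.8, 38.9 and 44.3 in DN mice (adjusted p = 0.000512). At 6 weeks, 3.54, 34.1, 7.06 and 42.5 CPM in DN mice stood against 4.05, 9.91, 0.445 and 3.10 in controls, with overlap, and the test was not passed (adjusted p = 0.14; 0.00154 with the pairing).

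Scg5 encodes the chaperone of a prohormone convertase and lies next to Grem1 on chromosome 2, on the same strand, with 17715 bases between the 2 annotated genes. It stood at 193, 171, 160.2 and 139 CPM in 12-week controls and 1253, 786, 1594 and 649 in DN mice. The lowest DN library was above the highest control, and the log2 fold change was 2.70 ± 0.29 (adjusted p = 0.000219). At 6 weeks the control females, at 522 and 886 CPM, were within the DN range of 432 to 1353, and the test was not passed (adjusted p = 0.0935; 0.00989 with the pairing).

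The Id genes moved the other way. Id1 stood at 13.2, 5.82, 36.2 and 40.9 CPM in 12-week controls and 4.04, 1.60, 6.78 and 2.89 in DN mice, a log2 fold change of -2.61 ± 0.32 (adjusted p = 0.000493). The groups overlapped across sexes, while within each sex the DN libraries lay below the controls. Id3 stood at 127, 109, 226 and 231 CPM in controls and 75.7, 34.5, 77.2 and 42.8 in DN mice, without overlap (-1.58, adjusted p = 0.00902). Id4 fell at 12 weeks (-1.43, adjusted p = 0.00638), with 58.2 to 127 CPM in controls and 24.3 to 57.5 in DN mice, and Id2 had a log2 fold change of -0.78 (adjusted p = 0.0832; 0.00053 with the pairing). Proximal tubule-type barcodes also held these genes, and the mean Id1 level in principal cells over both ages was 42.0% of theirs in controls and 20.2% in DN mice, and per library 7.73% to 122% and 6.04% to 36.1%, with overlap. The part of free RNA in the Id1 difference was not tested. The mean Id3 level over 8 libraries of both ages was 169% of theirs in controls and 126% in DN mice, and per library 89.7% to 300.1% and 59.6% to 269.6%. In proximal tubule-type barcodes the mean Id1 level was 54.4 CPM in controls and 27.5 in DN mice. There Id3 stood at 93.8 and 54.6 CPM and Id4 at 31.3 and 32.5.

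Fstl1, a secreted follistatin-like glycoprotein, was lower in each DN library at 12 weeks, at 33.3, 41.2, 22.2 and 46.6 CPM against 135, 115, 118 and 132 in controls (-1.78, adjusted p = 0.00234). Of 20 tested BMP ligands, antagonists, receptors and targets, a list put together after these values were seen, 2 rose at 12 weeks (Grem1, Bmp3) and 4 fell (Id1, Id3, Id4, Fstl1), where 1.04% of all genes passed, with a list median of -0.03 on the log2 scale against 0.00 over all genes. The list is no independent evidence of its direction. No tested receptor or Smad of the list passed: Bmpr1a had a log2 fold change of -0.04 (adjusted p = 0.975), Bmpr2 of -0.03 (adjusted p = 0.993) and Smad7 of -0.42 (adjusted p = 0.263; 0.0114 with the pairing).

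Some injury-associated genes rose. Lcn2, a lipocalin released by stressed distal tubules, stood at 79.3, 101, 167 and 112 CPM in 12-week controls and 413, 415, 557 and 378 in DN mice, and at 103, 122, 188 and 83.5 and 236, 234, 328 and 238 at 6 weeks. Every DN library was above every control library at each age. The log2 fold change was 1.96 ± 0.23 at 12 weeks, a 3.90-fold rise (adjusted p = 0.00037) and 1.06 ± 0.22 at 6 weeks, which did not pass (adjusted p = 0.0935; 0.00103 with the pairing). Proximal tubule-type barcodes held an Lcn2 UMI in 0% to 0.641% of cells against 11.2% to 40.1% of principal cells.

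Spp1, the gene of the matrix phosphoprotein osteopontin, stood at 389, 282, 177 and 201 CPM in 12-week controls and 1219, 700.1, 1640.0 and 478 in DN mice, without overlap (2.01, adjusted p = 0.0129). Its call was lost in 4 of the 16 fits that left out 1 library (largest adjusted p = 0.1, without DN female 12 weeks replicate 1). Over both ages its mean in proximal tubule-type barcodes was 1146 CPM in controls and 1718 in DN mice, against 429 and 995 in principal cells, and the part of free RNA in its difference was not tested. At 6 weeks its control levels ran over 242 to 1270.5 CPM, with the top value in control female replicate 2, the library with the most thick ascending limb RNA. Of the 21 tested genes of the tubular injury and cytokine list, Lcn2 and Spp1 rose at 12 weeks and none fell (0.787% and 0.254% of all genes), and the list median was 0.25 on the log2 scale. Over both ages Lcn2, Spp1, the matricellular gene Ctgf (1.57, adjusted p = 0.0274), the macrophage growth factor Il34 (0.68, adjusted p = 0.0301) and the chaperone clusterin, Clu (1.14, adjusted p = 0.0353), rose. Anxa1, which codes for an anti-inflammatory annexin, fell (-0.48, adjusted p = 0.0314). The list median was then 0.37, 9 rose and 1 fell with the pairing (8.1% of all genes, and 2.33% without it), and without 1 library the calls of Ctgf, Il34, Clu and Anxa1 were lost in 9, 11, 7 and 10 of 16 fits.

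Over both ages together, 8 DN against 8 control libraries, 165 genes rose (1.44%) and 101 fell (0.883%), 266 in all (2.33%). Without control male replicate 1 of 6 weeks, DN female replicate 1 of 12 weeks or DN male replicate 1 of 12 weeks the count was 162, 168 and 171, and with the pairing it was 927 (8.1%), the 266 among them. Of the 266, 20 had no overlap between the 8 DN and 8 control libraries, against 0.21% of all genes tested.

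In the water handling list, 2 of 22 tested genes passed, against 2.33% of all genes. Elf5 rose (0.54 ± 0.12, adjusted p = 0.0278) and Ptger4, a prostaglandin E2 receptor, fell (-0.66 ± 0.11, adjusted p = 0.00439). The list median was -0.08 on the log2 scale, and with the pairing (8.1% of all genes) 1 rose and 4 fell, Tfcp2l1, a transcription factor of collecting duct cells (adjusted p = 0.00393), and the endothelin receptor Ednrb (adjusted p = 0.0413) among the 4. Elf5 ran over 33.8 to 66.6 (median 56.4) CPM in controls and 57.3 to 97.6 (median 81.2) in DN mice, and its call was lost in 9 of the 16 fits without 1 library (largest adjusted p = 0.0931, without DN male 12 weeks replicate 1) and in the 12 deeper libraries alone (adjusted p = 0.163). Ptger4 was low in all libraries, at 12.6 to 18.2 (median 13.8) CPM in controls and 8.07 to 10.1 (median 9.26) in DN mice, and did not overlap. Avpr2, through which vasopressin acts, stood at 232 to 409 (median 321) CPM in controls and 158 to 331 (median 283) in DN mice (-0.30 ± 0.12, adjusted p = 0.269; 0.023 with the pairing). Aqp4, the basolateral water channel that was not in the rule, had a log2 fold change of 0.10 ± 0.11 (adjusted p = 0.793).

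Of 28 tested genes on the list of sodium and potassium handling, 1 rose (Spink8) and none fell (2.33% of all genes passed), and their median was 0.05 on the log2 scale. Spink8 belongs to a protease inhibitor family, and these data do not show a part for it in that handling. The ENaC subunits Scnn1a, Scnn1b and Scnn1g had log2 fold changes of -0.30 ± 0.17, -0.22 ± 0.16 and -0.02 ± 0.14, with adjusted p = 0.482, 0.636 and 0.991. With the pairing (8.1% of all genes) 1 rose and 3 fell. Scnn1a and Kcnj10, a basolateral potassium channel, passed at log2 differences of -0.30 (adjusted p = 0.00808) and -0.35 (adjusted p = 0.00155), and Klk1, a kallikrein gene of the connecting tubule whose close paralogs make its count uncertain, at an unpaired log2 fold change of -1.09 and adjusted p = 0.0284 with the pairing. The unpaired value of Kcnj10 was -0.36 ± 0.15 (adjusted p = 0.285). Nr3c2 (-0.21, adjusted p = 0.475), the aldosterone-induced kinase Sgk1 (0.52, adjusted p = 0.579), the ubiquitin ligase Nedd4l that removes ENaC (-0.25, adjusted p = 0.277), Kcnj1 (0.18, adjusted p = 0.468) and the sodium pump subunit Atp1b1 (0.04, adjusted p = 0.912) passed in neither fit. The Sgk1 estimates differed in sign, at 1.49 ± 0.49 at 6 weeks (adjusted p = 0.431) and -0.45 ± 0.47 at 12 weeks (adjusted p = 0.823).

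**Figure D2:**
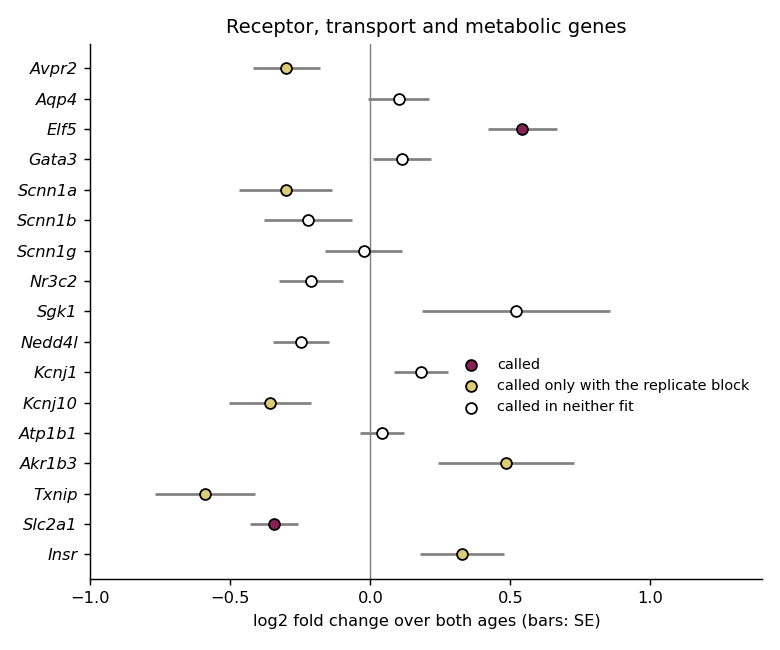
Log2 fold change (x axis), DN against control over both ages, of 17 receptor, transport and metabolic genes in principal cells, with SE bars, dark points for genes that passed the test and yellow points for genes that passed only with the replicate pairing. Elf5 (0.54) and Slc2a1 (-0.34) passed, and the 17 estimates lie between -0.59 and 0.54.

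Spink8, a gene of the Kazal-type protease inhibitor family, stood at 402, 291, 235 and 197 CPM in 12-week controls and 1983, 896, 1277 and 712 in DN mice, without overlap (2.09 ± 0.26, adjusted p = 0.000512). At 6 weeks the control females, at 724 and 471 CPM, lay within and below the DN range of 603 to 1084, and the test was not passed (adjusted p = 0.129; 0.0252 with the pairing). Trpv6, an epithelial calcium channel, rose at each age, at 55.5, 48.2, 20.5 and 14.5 CPM in DN mice against 14.2, 17.9, 6.08 and 8.42 in controls at 6 weeks and 25.7, 27.3, 23.5 and 25.5 against 15.2, 11.4, 4.85 and 8.22 at 12 weeks, with overlap across the sexes at 6 weeks and none at 12 weeks. Its log2 fold changes were 1.45 ± 0.21 (adjusted p = 0.0079, and 0.0599 without DN female replicate 2 of 6 weeks) and 1.51 ± 0.22 (adjusted p = 0.00224). Calb1, the calcium buffer that works beside this channel, was limited by the rule, and summed connecting tubule markers stood at 944 to 2406 CPM in members; their part in the Trpv6 difference was not tested.

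Adora1, the adenosine A1 receptor, was higher in DN mice in all 8 pairs and did not overlap at either age, at 7.08 to 19.7 CPM over the 8 controls and 26.1 to 51.7 over the 8 DN libraries. The log2 fold change was 1.32 ± 0.20 at 6 weeks (adjusted p = 0.008; 0.0845 without DN female replicate 2 of 6 weeks) and 1.44 ± 0.21 at 12 weeks (adjusted p = 0.0019). The counting of reads by strand is not given in the sources used here. Adora1 overlaps Mybph on the other strand, so whether the 2 genes' reads were told apart is not known here. Mgll, which codes for the lipase that breaks down monoacylglycerols and the endocannabinoid 2-arachidonoylglycerol, stood at 52.4, 93.3, 120.4 and 90.9 CPM in 12-week controls and 126, 211, 238 and 200.2 in DN mice, without overlap (1.13 ± 0.12, adjusted p = 0.000219), and rose at 6 weeks too (0.86 ± 0.12, adjusted p = 0.0079). Arg2, the mitochondrial arginase, rose, with 20.1 to 25.8 CPM in controls and 78.7 to 109 in DN mice at 12 weeks (2.09 ± 0.24, adjusted p = 0.00037). It overlaps Vti1b on the other strand. Gas6, Golm1, Flrt3, Ptger4, Timp3, Mgll, Avpr2, Scnn1b, Il34 and Kcnk2 are among other named genes that overlap another gene there, with the same limit.

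Krt19, a keratin of simple epithelia, stood at 2.94, 3.03, 3.75 and 4.82 CPM in 12-week controls and 41.4, 45.7, 68.9 and 43.4 in DN mice (3.78 ± 0.41, adjusted p = 0.000219). At 6 weeks control female replicate 2, at 28.9 CPM, lay inside the DN range of 16 to 41.2, and the test was not passed (adjusted p = 0.322). The gene D630023F18Rik rose, with 3.75 to 6.09 CPM in controls and 186 to 202 in DN mice at 12 weeks (5.40 ± 0.64, adjusted p = 0.000423), and proximal tubule-type barcodes held it in both genotypes, at means of 99.9 CPM in controls and 115 in DN mice. Car15, a membrane-bound carbonic anhydrase, rose within each pair, from 55.3 to 577 CPM in the shallower female pair of 12 weeks and from at most 6.05 to at least 31.0 in the other 3 (2.93 ± 0.31, adjusted p = 0.000219). It was higher in the shallower libraries of both genotypes, and it overlaps the gene model Gm20518 on the same strand, so the count of either is uncertain. D630023F18Rik, Mgll and Col26a1 are among other named genes that overlap a gene model on their own strand, with the same limit. Fgf12, an intracellular fibroblast growth factor homologue, Tceal3 and the calcium-binding Rcn1 also rose at 12 weeks, by 3.21, 3.21 and 1.87 on the log2 scale (adjusted p = 0.000512, 0.000669 and 0.000773).

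Among the other genes that fell at 12 weeks were Fras1, an extracellular matrix gene of epithelial basement membranes (-1.08, adjusted p = 0.00413), the apolipoprotein Apoe (-0.71, adjusted p = 0.00782), the riboflavin transporter Slc52a3 (-1.98, adjusted p = 0.00902), the collagen gene Col26a1 (-1.12, adjusted p = 0.0137), the potassium channel Kcnk2 (-0.91, adjusted p = 0.0137), Kctd12 (-1.12, adjusted p = 0.0125) and the lincRNA 1110019B22Rik (-1.15, adjusted p = 0.00585). The calls of Apoe and Slc52a3 were each lost in 2 of the 16 fits without 1 library, and those of Kctd12, Col26a1 and Kcnk2 each in 4. For all 5, 12-week libraries were the ones left out with the largest effect: DN female replicate 1 for Kctd12 (adjusted p = 0.0771) and control female replicate 2 for the other 4 (adjusted p = 0.0581 for Apoe, 0.0781 for Slc52a3, 0.0902 for Col26a1 and 0.102 for Kcnk2). Over both ages Gchfr, a regulator of tetrahydrobiopterin synthesis, fell as well (-0.86, adjusted p = 0.00149).

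At 6 weeks, the stage of onset, 12 genes differed (0.105%): 7 rose and 5 fell. Mgll, Smoc2, Trpv6, Golm1, Adora1, Tspan33 and Gas6 rose, and Npy, Eprn, Ces1f, Flrt3 and Id1 fell. Smoc2, a secreted matricellular protein, rose, with 7.75 to 24.3 CPM in controls and 24.7 to 42.5 in DN mice without overlap (1.61 ± 0.24, adjusted p = 0.0079), and Flrt3, a leucine-rich repeat membrane protein, fell (-1.33 ± 0.19, adjusted p = 0.0079). The lincRNA Eprn fell, with 11.6 to 23.4 CPM in controls and 1.57 to 5.10 in DN mice (-2.50 ± 0.32, adjusted p = 0.00429). Golm1, a Golgi membrane protein (0.83, adjusted p = 0.0079), the tetraspanin Tspan33 (0.95, adjusted p = 0.0214) and Gas6, the ligand of the TAM receptor kinases (0.61, adjusted p = 0.0491), rose. Ces1f, a carboxylesterase of the proximal tubule, fell (-3.13 ± 0.43, adjusted p = 0.0079). As means over both ages and sexes, Ces1f in principal cells stood at 8.29 CPM in controls and 1.49 in DN mice against 356 and 91.2 in proximal tubule-type barcodes, or 2.33% and 1.63% of that level, and per library the share ran over 0% to 9.36%. The part of free RNA in the Ces1f difference was not tested.

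Of the 12 calls, 5 had no overlap between groups, against 1.69% of all genes tested. The count was 21 without control female replicate 2 of 6 weeks, 27 without control male replicate 1 or DN male replicate 1 of 12 weeks, and 131 (1.15%) with the pairing, the 12 among them. Without 1 library, the calls were lost in 13 of 16 fits for Gas6 (largest adjusted p = 0.245, without control male 6 weeks replicate 2), 10 for Id1 (largest adjusted p = 0.221, without control male 6 weeks replicate 1), 7 for Tspan33 (largest adjusted p = 0.115, without control male 6 weeks replicate 1), 2 each for Golm1 and Ces1f (0.0791 without DN female 6 weeks replicate 2, and 0.0672 without control male 6 weeks replicate 2) and 1 each for Trpv6 and Adora1.

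**Figure D3:**
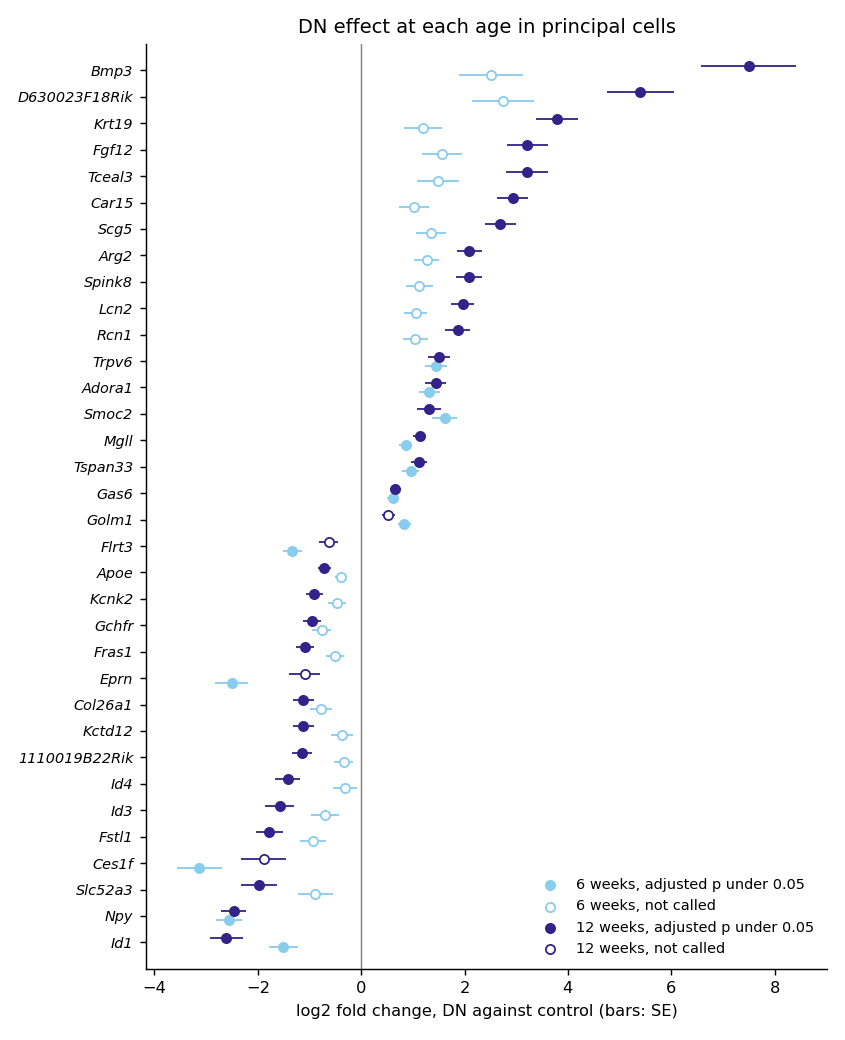
Log2 fold change (x axis), DN against control in principal cells, of the genes named for their small p at an age or over both ages, at 6 weeks (light) and 12 weeks (dark), with SE bars and filled points for an adjusted p under 0.05. Each plotted gene lies on the same side of 0 at both ages, and the 12-week values run from Bmp3 (7.50) to Id1 (-2.61). The value of Bmp3 has no firm size, since its control libraries held few UMIs.

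The 2 ages were compared directly. No gene passed for the difference between the 12-week and the 6-week effect (0%, edgeR), with 340 genes at an unadjusted p under 0.05. By DESeq2, 0 passed and 252 were at an unadjusted p under 0.05. The count was 3 with the pairing and 7 without DN male replicate 2 of 6 weeks. The estimates at the 2 ages come from different mice and share 1 model. Of the 12 genes called at 6 weeks, 8 were also called at 12 weeks. For the 119 called at 12 weeks the median size was 1.51 on the log2 scale at 12 weeks and 0.715 at 6 weeks, with 117 of the same sign and 113 larger at 12 weeks. For the 12 called at 6 weeks it was 1.22 at 12 weeks and 1.39 at 6 weeks, with 12 of the same sign and 6 larger at 12 weeks. Each set was chosen on the values of its own age, which partly fixes which age is larger.

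Among principal cell identity and cytoskeleton genes, 4 of 28 tested passed, against 2.33% of all genes, and 4 rose and 7 fell with the pairing (8.1% of all genes). Krt19 rose and Gata2, Lhx1 and Hes1, 3 transcription factors, fell over both ages (-0.43, adjusted p = 0.0281, -0.45, adjusted p = 0.0327 and -0.54, adjusted p = 0.00643), and the median was -0.17 on the log2 scale. The calls of Gata2 and Lhx1 were lost in 9 and 11 of the 16 fits without 1 library (largest adjusted p = 0.0856, without control female 12 weeks replicate 2, and 0.0906, without DN male 12 weeks replicate 1). Gata3, a transcription factor of this lineage, had a log2 fold change of 0.11 ± 0.10 (adjusted p = 0.744). Of the 14 claudin and tight junction genes tested, none passed in either fit over both ages or at 12 weeks. At 6 weeks, with the pairing (1.15% of all genes), Cldn3 rose (0.41, adjusted p = 0.0433) and Cldn10 fell (-1.37, adjusted p = 0.0396), where both fold changes are the unpaired ones.

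Of 25 tested genes of glucose transport and glycolysis 2 passed, against 2.33% of all genes, and 2 rose and 2 fell with the pairing (8.1% of all genes). The aldolase Aldoc rose (0.73 ± 0.10, adjusted p = 0.000737), with 66.8 to 86.1 (median 73.6) CPM in controls and 92.6 to 181 (median 119.5) in DN mice, without overlap, and the glucose transporter Slc2a1 fell (-0.34 ± 0.09, adjusted p = 0.0489), a call lost in 13 of the 16 fits without 1 library (largest adjusted p = 0.134, without control female 12 weeks replicate 2). Their median was 0.18. None of 13 osmotic response and polyol genes passed (median 0.24), and 5 rose with the pairing (8.1% of all genes), among them Akr1b3, the aldose reductase that makes sorbitol (log2 fold change 0.48 ± 0.24, adjusted p = 0.422; 0.0213 with the pairing). Txnip, a gene that glucose is known to induce, had a log2 fold change of -0.59 ± 0.18 (adjusted p = 0.107; 0.00195 with the pairing), at 403 to 1477 (median 913) CPM in controls and 256 to 866 (median 646) in DN mice. None of 21 insulin, IGF, leptin and growth hormone genes passed (1 rose and 3 fell with the pairing, in that fit also against 8.1%), and the insulin receptor Insr had a log2 fold change of 0.33 ± 0.15 (adjusted p = 0.362; 0.00203 with the pairing). The leptin receptor Lepr was too low to be tested.

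The remaining lists are given over both ages, where 2.33% of all genes passed, or 8.1% with the pairing. Of 25 NRF2 and antioxidant genes, the quinone reductase Nqo1 rose (0.60, adjusted p = 0.00703), and 6 rose and 2 fell with the pairing. Of 28 immediate early and dissociation stress genes, Ier3 rose (1.15, adjusted p = 0.0216; 3 rose and 2 fell with the pairing), and of 21 matrix and adhesion genes, Timp3, a metalloproteinase inhibitor, rose (0.60, adjusted p = 0.0461; 1 rose and 1 fell with the pairing). Of 26 sterol and lipid genes, the lipoprotein lipase Lpl fell (-1.31, adjusted p = 0.0342; 2 rose and 2 fell with the pairing), and its proximal tubule-type level was 209 CPM in controls and 51.4 in DN mice against 19.5 and 7.49 in principal cells. The calls of Ier3, Timp3 and Lpl were lost in 5, 13 and 11 of the 16 fits without 1 library. None passed among 18 unfolded protein response, 26 interferon and antigen presentation, 17 circadian clock, 78 nuclear and 13 mitochondrial oxidative phosphorylation genes. With the pairing 3 unfolded protein response genes rose, and 1 gene rose and 1 fell in the clock list and in the nuclear oxidative phosphorylation list. The list median differed in sign between the 2 ages for the 26 interferon and antigen presentation genes. Of these, 19 had estimates above 0 at 6 weeks (median 0.15) and 2 at 12 weeks (median -0.32), with no call at either age. Other lists had medians of opposite sign too. Of the 78 nuclear oxidative phosphorylation genes, 21 were above 0 at 6 weeks (median -0.04) and 60 at 12 weeks (median 0.06), again with no call. At 12 weeks, with the pairing (5.67% of all genes), 1 clock gene rose and 3 fell.

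The next question was whether these effects were shared with the other cells of the same mice, which also bear the free RNA of the suspension. For each library the log2 level in principal cells was set against that in all other kept barcodes. The difference between DN and control differed in turn for 248 genes at 12 weeks (2.17%), 286 over both ages (2.5%) and 0 at 6 weeks, by limma. Those over both ages included 89 of the 266 genes called, and those at 12 weeks included 52 of the 119 called. Car15, Spink8, Scg5, Bmp3, Krt19 and Mgll were among these 52. The 12-week effects in all other barcodes were -0.04 for Car15, 0.07 for Spink8, 0.89 for Scg5 and 1.20 for Krt19 on the log2 scale. Effects in other sets of barcodes are limma estimates, while the fold changes given above for principal cells are edgeR estimates. For Lcn2, Npy and Grem1 the 12-week difference between principal cells and the rest did not pass, with 0.62 (adjusted p = 0.517), -1.23 (adjusted p = 0.3) and 1.34 (adjusted p = 0.0601). The other barcodes hold Aqp2-bearing cells that the rule left out.

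The closest neighbours were the 4042 connecting tubule-type barcodes, which met all the criteria except that Calb1 and S100g made up 1% or more. Against them the effect differed for 3 genes at 12 weeks (0.0262%), Mgll, Spink8 and Bmp3, and for 0 at 6 weeks. It differed for 17 over both ages (0.149%), 8 of which were among the 266 called genes. At 12 weeks the log2 fold change of Mgll was 1.13 in principal cells by edgeR and 0.06 in connecting tubule-type barcodes by limma (limma difference 1.08 ± 0.13, adjusted p = 0.0117). For Spink8 the difference was 1.31 ± 0.16 (adjusted p = 0.0117) and for Bmp3, whose few control UMIs leave the difference without a firm size, adjusted p = 0.0424. Npy and Grem1 did not pass (adjusted p = 1 and 0.976), with 12-week effects in connecting tubule-type barcodes of -3.75 and 5.63.

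**Figure D4:**
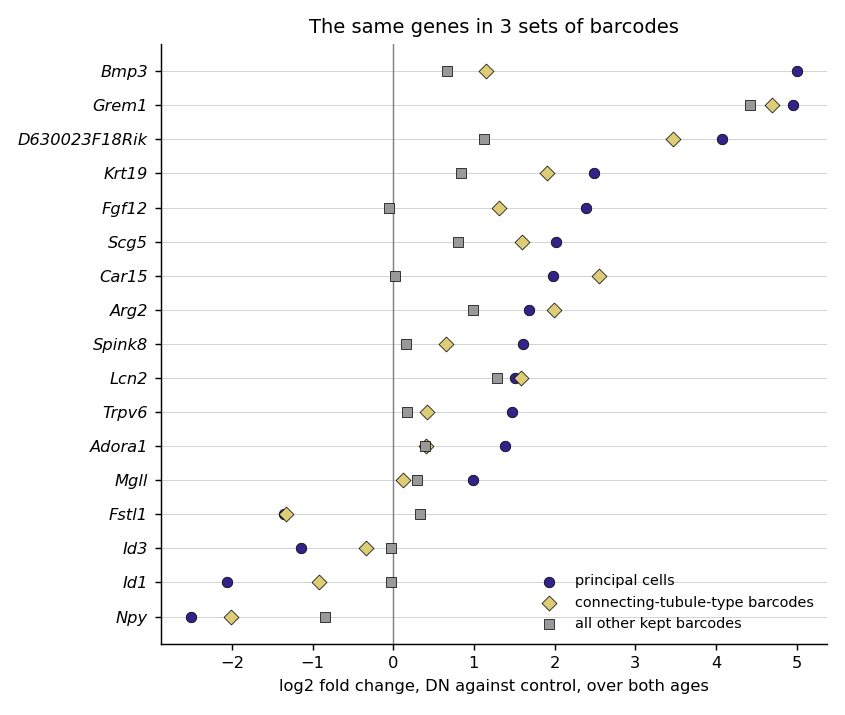
Log2 fold change (x axis), DN against control over both ages, of 17 named genes in principal cells (circles), connecting tubule-type barcodes (diamonds) and all other kept barcodes (squares). Circles are edgeR estimates, and diamonds and squares are limma estimates on log2 CPM with a prior count of 2. Their sizes are therefore not on 1 measure, above all for genes of few UMIs. The circle of Mgll (0.99) lies to the right of its diamond (0.12), while those of Lcn2 (1.51 and 1.58) lie side by side. After thinning, an Lcn2 UMI was seen in 0% to 3.70% of connecting tubule-type barcodes, against 11.2% to 40.1% of principal cells. The Lcn2 diamond thus rests on few UMIs, and the part of free RNA in it was not tested. The circle of Bmp3 (5.01) also lies to the right of its diamond (1.15), but its few UMIs leave neither size firm.

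Sex was a further factor. Between females and males, 52 genes differed (0.455%), with 12 higher in females and 40 higher in males. The count was 15 without control female replicate 2 of 6 weeks, 32 without control female replicate 2 of 12 weeks and 79 without DN male replicate 2 of 6 weeks. The X-inactivation transcript Xist and its antisense Tsix were higher in females, as were the X-linked Eif2s3x and Kdm6a, and the Y-linked Eif2s3y, Ddx3y, Uty and Kdm5d were higher in males. Npy and Id1 were lower in females than in males, by log2 differences of -1.74 ± 0.22 (adjusted p = 0.000627) and -2.31 ± 0.26 (adjusted p = 0.000252), and Kcnk2 too (-0.98, adjusted p = 0.00401; 0.0819 without control female 6 weeks replicate 2). Trpv6 was higher in females (0.93, adjusted p = 0.0197), a call lost in 4 of the 16 fits without 1 library. Of the 40 genes higher in males, 22 had a proximal tubule-type level over 10 times that in principal cells, the androgen-regulated Kap (-4.45) and Ces1f (-6.16) among them, and a Kap UMI was seen in up to 85.3% of thinned principal cells of a library.

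Between 12 and 6 weeks, 2 genes differed (0.0175%). The retinaldehyde dehydrogenase Aldh1a1 was higher at 12 weeks (0.58 ± 0.09, adjusted p = 0.0402) and Ttn, the titin gene, was lower (-1.08 ± 0.16, adjusted p = 0.0402). The calls were lost in 14 and 10 of the 16 fits without 1 library (largest adjusted p = 0.379 for both, without DN female 6 weeks replicate 2), and in the 12 deeper libraries alone no gene passed.

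Principal cells made up 3.78% to 13.8% of the kept barcodes of a library. At 6 weeks the share in percent was 8.51 and 13.8 in the females and 8.51 and 3.78 in the males among controls, and 6.31 and 9.44 in the females and 9.55 and 8.94 in the males among DN mice, which lay inside the control range. At 12 weeks it was 11.1 and 4.70 in the females and 10.3 and 9.92 in the males among controls, and 9.70 and 5.93 in the females and 4.58 and 5.45 in the males among DN mice, again with overlap. The means were 7.49% ± 2.12 (SD, n = 8) in DN mice and 8.83% ± 3.29 (SD, n = 8) in controls, a difference of -1.34 percentage points that did not pass an exact two-sided permutation test within age and sex (p = 0.394, 1296 arrangements). Among kept barcodes with at least 1000 UMIs the difference was -2.38 points (exact permutation p = 0.0602). The share rests on the UMI minimums of the rule and on the Percoll enrichment, so depth and recovery of the cells cannot be told apart from their number in the kidney.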

How the data were processed

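Single-cell RNA was sequenced from 16 mouse kidney suspensions, 1 library a mouse. Per the labels, the authors' processing notes name Cell Ranger 3.0.2 and mm10, and the deposited values are raw UMI counts per gene and barcode; the use of strand is not given in the sources used here. Groups came from the sample titles. Barcodes were filtered and chosen with the stated rule, doublets were handled by its gene maximum and its 0-UMI genes, and raw counts were summed per library. Sums were fitted with edgeR 4.0.16 (quasi-likelihood test, TMM, filterByExpr), with means for genotype by age, sex within age and a batch term, Benjamini-Hochberg adjusted over 11438 genes and called under 0.05. Comparisons between sets of barcodes used limma 3.58.1 on log2 CPM with a prior count of 2. The code was tested on simulated data. Deviations of same-numbered DN and control mice from their group means correlated at 0.700, 0.398, 0.623 and 0.344 in the 4 sex-by-age strata (females, then males, at 6 and at 12 weeks). In the females replicate 1 was the shallower batch in both genotypes, so only the male values of 0.398 and 0.344 bear on pairing. With 2 libraries in each group, swapping the replicate numbers within a genotype turns the sign of such a value. The male values are therefore weak grounds for pairing, and the paired fit is given beside the results only as an alternative. The titles name no litter or day. Named genes were the 12 called genes of smallest p in each direction at each age, 8 over both ages and 5 for sex and age, called list members and a fixed set of transport and metabolic genes. Rule, members and gene lists were chosen with earlier results of these data known. Alternatives were DESeq2 1.42.0, other filters and scaling, other rule limits, thinning, batch and leaving out each library. Some genes are not reported here.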

Additional observations from a re-analysis of the deposited data

Results flagged for a closer look

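The levels of 19 described genes and the share of principal cells were screened for single libraries far from the other 3 of their genotype and age, in 80 groups, of which 9 stood out (11.3%); chance gives about 1 in 20. Control female replicate 2 at 6 weeks stood above the other controls in Grem1 (135 CPM, others 1.63 to 21.3) and Krt19 (28.9 CPM, others 7.08 to 7.42). Car15 was high in each shallower female library: 109 CPM in control female replicate 1 at 6 weeks, 55.3 at 12 weeks, 232 in DN female replicate 1 at 6 weeks and 577 at 12 weeks. DN male replicate 1 stood high at 6 weeks in Lcn2 (328 CPM, others 234 to 238) and Id3 (118 CPM, others 63.4 to 71.2) and at 12 weeks in Krt19 (68.9 CPM, others 41.4 to 45.7).

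The DN effect in principal cells differed from that in all other kept barcodes for 248 genes at 12 weeks and 286 over both ages, and from that in connecting tubule-type barcodes for 3 and 17, by limma.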

How the results depend on the processing

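Sums over few cells limit genes of a few CPM, and 4 libraries were shallow. At 6 weeks the 12 calls became 359 with no filter on low counts, 50 by DESeq2, 3 with no batch term, 131 with the replicate block, 6 in the 12 deeper libraries, 21 with more excluded lineage genes, and 9 to 27 without 1 library. At 12 weeks the 119 became 567, 238, 42, 648 and 60 under the first 5 of these, 42 with cells thinned to 1000 UMIs, and 49 to 191 without 1 library. Over both ages the 266 became 800 with no filter, 93 with no batch term, 927 with the block, 172 in the deeper libraries, 82 thinned (6519 genes tested) and 162 to 348 without 1 library. For the difference between ages, 0 calls became 152 with no filter, 3 with the block and 0 to 7 without 1 library. For sex, 52 became 603 with no filter, 112 by DESeq2, 33 at a mitochondrial limit of 20%, 23 thinned and 15 to 79 without 1 library. For age, 2 became 206 with no filter, 9 by DESeq2, 0 with no batch term or in the deeper libraries, 1 with more excluded genes or thinned, and 0 to 6 without 1 library. The cause of these moves was not tested, beyond the fewer genes or libraries that some leave. The counts stayed within 1.5 times under the settings not listed for them, and the share of principal cells stayed on its side of the threshold, between -2.68 and -0.326 points over these limits and the denominators and -2.07 and -0.638 without 1 library. For named genes that passed, 2059 values kept their call and 326 did not, and no value past the threshold turned direction; of those that did not pass, 64 values passed under another setting and 1231 did not. The block lost none of the 12, 119 and 266 calls.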
